A study of Lupinus micranthus with 18 samples.

Results

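In leaves of Lupinus micranthus seedlings, 271 of 81470 unigenes were found in plants raised from Iceland seed and were all but missing in plants raised from America seed. A unigene is an assembled transcript unit of a species studied here without a genome. Members were chosen by counts: at most 3 counts summed over the 9 America libraries, and a mean of at least 10 counts over the 9 Iceland libraries. The difference between the origins is therefore how the set was made and is described below without a test. The set is called the Iceland-only unigenes, which says where reads were counted and not where the genes exist.

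The series holds 18 leaf RNA libraries, 3 in each of 6 groups. America seedlings were left without treatment, or put under polyethylene glycol (PEG) drought for 24 h or for 72 h, and Iceland seedlings were handled in the same 3 ways. The labels name no line, genotype or seedling age. They leave unsaid whether each replicate is its own plant, so a p-value below speaks only of how far these libraries scattered, a scatter that may be technical. The untreated groups carry no hours in the labels, so a difference between PEG and untreated leaves, or between 24 h and 72 h, cannot be told apart from one of age, harvest time or handling.

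PEG is a polymer that lowers the water available to roots without entering the plant readily, and leaf transcripts answer through the hormone abscisic acid and through dehydration-responsive transcription factors. Plants of 1 species grown from seed of different places can differ in which genes they carry and in the sequence of those they share. The deposited table pairs no identifier with a gene name, a function or a sequence, so no role can be given to any unigene below, and leaf markers could not be looked up.

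Library totals ranged from 9603068 to 12605500 counts. A count of 0 in 1 library allows up to 3 counts, which is 0.222 to 0.351 CPM (the usual depth-scaled count unit, here on TMM-scaled totals), and this limit covers counting error only. Untreated Iceland replicate 3 stood apart: over the 25610 other unigenes with an Iceland mean of at least 10 counts, its log2 CPM correlated at 0.913 and 0.898 with untreated replicates 1 and 2, which correlated at 0.972 with each other. Counts of members that turn on this library are given with and without it.

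The America libraries held 200 counts over all 271 Iceland-only unigenes, against 78219 in the Iceland libraries. In America leaves 153 members had no count at all, 59 had 1 count, 36 had 2 and 23 had 3. These traces were spread thinly: each America library held 11 to 33 of the 200 counts. At the America limit of the rule, Unigene0044954 and Unigene0004098 had 3 counts in America and Iceland means of 437 and 130 counts, and Unigene0075507 and Unigene0027539, left out with 4 America counts each, had Iceland means of 85.6 and 51.6. In all 28 unigenes with an Iceland mean of at least 10 counts were left out with exactly 4 America counts. At the other limit, Unigene0008507 and Unigene0010846 had an Iceland mean of 10 counts, and Unigene0000414 and Unigene0008266 missed it with 9.89. The set is one end of a continuous range: 328 further unigenes had at most 3 America counts and an Iceland mean from 5 to under 10.

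Most Iceland-only unigenes were scarce. Their mean over the 9 Iceland libraries had a median of 1.72 CPM, with quartiles of 1.21 and 3.44 CPM, and 39 of 271 reached 5 CPM. Per length, the median member stood at 2.29 FPKM (fragments per kilobase of unigene, scaled for depth) and the median of all 30895 unigenes tested at 4.31 FPKM in the same libraries. The 4 most abundant members held 12.2% of the summed mean CPM of the set.

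The most abundant member, Unigene0044954, stood at 92.2, 0 and 0 CPM in untreated replicates 1 to 3, at 0.0916, 0.084 and 0 CPM after 24 h of PEG, and at 167, 72.9 and 23.7 CPM after 72 h. It was thus high in 1 untreated library and in all 72 h libraries and nearly silent in the other 5. Unigene0004940 stood at 15.7, 0 and 0 CPM untreated, at 107, 36.0 and 59.6 CPM after 24 h, and at 8.58, 10.3 and 0 CPM after 72 h. Its 24 h libraries were above every other library, while 1 replicate at 72 h and 2 untreated ones had no count. Unigene0076212 had no count in untreated leaves, stood at 0.183, 60.8 and 0 CPM after 24 h, and at 8.07, 96.5 and 2.39 CPM after 72 h. Unigene0076211 followed it, with 0, 43.9 and 0.102 CPM after 24 h and 4.54, 72.2 and 1.32 CPM after 72 h. In both, replicate 2 at each PEG time held nearly all the counts.

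**Figure D1:**
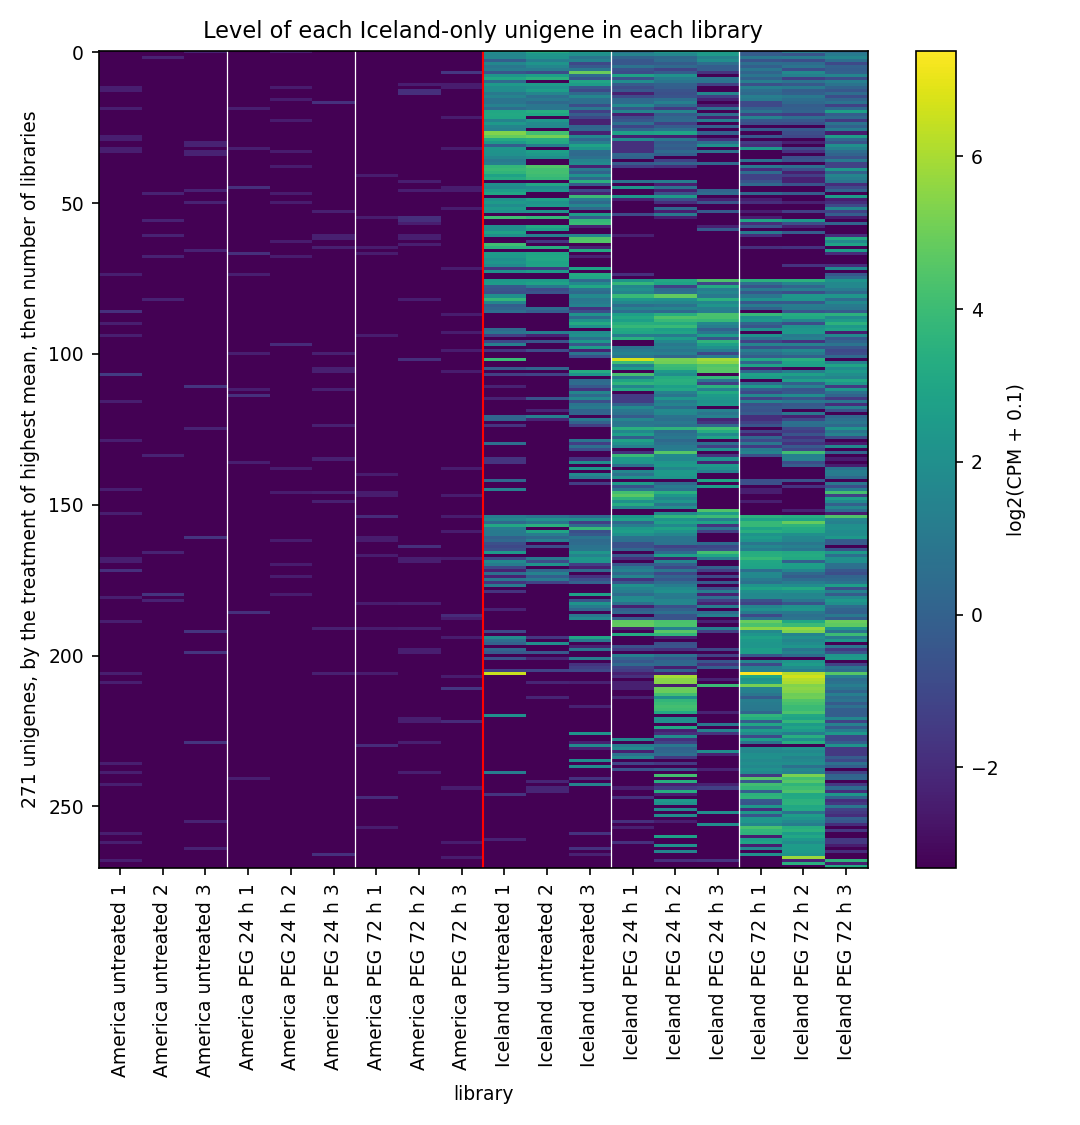
Level of each of the 271 Iceland-only unigenes (1 row each) in each of the 18 libraries (columns), as log2(CPM + 0.1) by colour; white lines part the treatments and the red line parts America (left) from Iceland (right). The America side holds only scattered traces, as the rule requires, and on the Iceland side many rows are bright in some replicates of a treatment and dark in others.

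Being found in Iceland leaves did not mean being found in every Iceland library. Of the 271 members, 37 (13.7%) had at least 1 count in all 9 Iceland libraries, 159 had counts in 5 to 8 of them and 75 in 4 or fewer. With at least 4 counts asked for in every library, 14 members were left, and with at least 10 counts, 4. Of the 25610 other unigenes with an Iceland mean of at least 10 counts, 93.1% had counts in all 9 libraries. Those others were mostly more abundant, so the shares were also read at like levels. With Iceland means from 10 to under 20 counts, 12.9% of 147 members and 74.3% of 4173 other unigenes were in all 9 libraries. From 20 to under 50 counts the shares were 13.6% of 81 and 90.4% of 5001, and from 50 counts up they were 16.3% of 43 and 98.7% of 16436. The gap was present in each class of level. It is fixed in part by the choice of members, which matching on level does not remove. The rule asks for almost no counts in America, which a unigene found in scattered libraries meets more readily than a widely found unigene. The other unigenes are those past the America limit. How much of the gap the rule accounts for was not tested. The same holds below wherever members and other unigenes are compared for evenness over libraries.

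**Figure D2:**
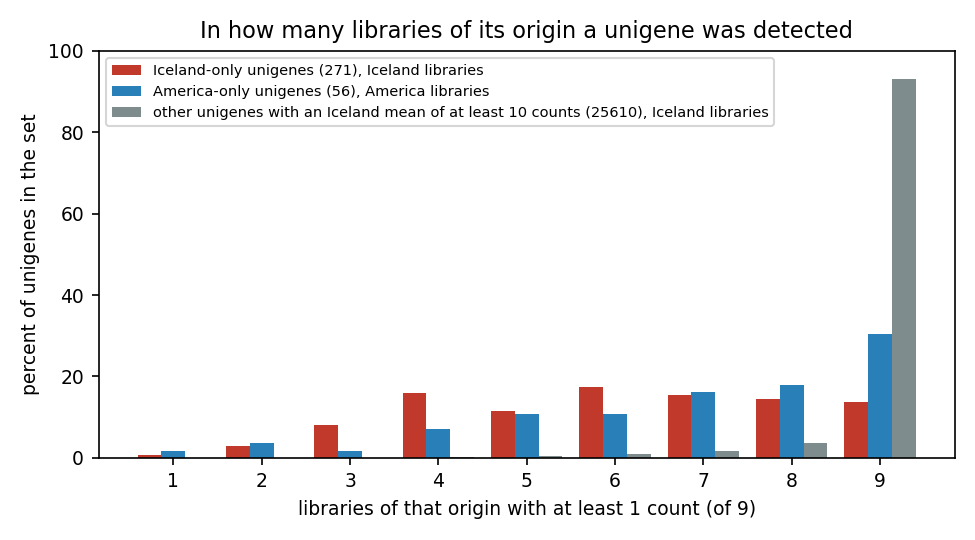
Percent of unigenes (vertical axis) by the number of libraries of the origin with at least 1 count (horizontal axis), for the Iceland-only set, the America-only set and other unigenes of at least 10 counts on average in Iceland. Other unigenes pile up at 9 libraries (93.1%), while 13.7% of the Iceland-only and 30.4% of the America-only unigenes do. The rule that chose the sets fixes this gap in part.

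The unevenness was found between replicates of the same treatment. In 126 members (46.5%) at least 1 Iceland group held a library with 30 or more counts beside a library with 0, in 64 of them at 24 h of PEG, in 50 without treatment and in 35 at 72 h. Of the other unigenes, 1.56% showed this. Without untreated replicate 3, the number was 99 members, and 38 members had counts in all 8 remaining libraries. In 92 members (33.9%) a single Iceland library held at least 50% of the summed CPM, against 1.93% of the other unigenes. That library was replicate 2 at 72 h in 31 of the 92, and untreated replicate 2 in 13. The median member had 40.6% in its highest library.

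The rule for named unigenes took the extremes of this spread among the 39 members of at least 5 CPM. Unigene0035832 varied least, with a coefficient of variation (CV, SD over mean) of 0.713: it stood at 5.27, 5.73 and 1.20 CPM untreated, at 4.49, 8.82 and 20.8 CPM at 24 h, and at 11.4, 11.3 and 4.45 CPM at 72 h. Unigene0072736 came next with a CV of 0.760, at 0, 0 and 4.69 CPM untreated, 6.42, 10.5 and 19.8 CPM at 24 h, and 14.1, 9.86 and 11.8 CPM at 72 h. The first was found in every library, the second in all but untreated replicates 1 and 2. At the other extreme, Unigene0000828 had 55.3 CPM in replicate 2 at 72 h and no count in the other 8 Iceland libraries. Unigene0023794 had 18.0 CPM in replicate 2 at 24 h, 0.252, 37.4 and 0.990 CPM at 72 h, and no count elsewhere. The median CV was 1.37 for the set and 0.422 for the other unigenes.

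The same libraries recurred from member to member. Scored as more than 3 counts or not in each of the 9 Iceland libraries, the 271 members showed 104 different profiles, 56 of them held by 1 member each. The most frequent profile, shared by 18 members, was presence in replicate 2 at 24 h and in all 3 libraries at 72 h, with at most 2 counts in any of the other 5. This profile was singled out after its values were seen and was not tested. Over the 18 members, the 4 libraries held 4135 counts in replicate 2 at 24 h, then 606, 5597 and 284 counts in replicates 1 to 3 at 72 h, against 0 to 7 counts in each of the other 5 Iceland libraries. In the median member of the 18, replicate 2 at 24 h held 36.1% of the CPM in these 4 libraries and replicate 2 at 72 h held 56.6%, while replicates 1 and 3 at 72 h held 4.69% and 2.53%. The shares ranged over the 18 from 2.62% to 52.7% and from 30.2% to 85.0% in the 2 rich libraries. Their implied lengths ran from 702 to 1863 bases. A further 11 unigenes with the same profile and at most 3 America counts had Iceland means under 10 counts.

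Other profiles singled out in the same way tied together other libraries. A group of 7 members was present in untreated replicates 1 and 2 alone, with 387 and 471 counts, and 160 unigenes below the count limit shared that profile. Another 7 were present in replicates 1 and 2 at 72 h alone, with 776 and 479 counts, beside 189 unigenes below the limit. A group of 6 was present in untreated replicate 3 and in replicate 3 at 72 h, with 782 and 290 counts, across a difference in treatment. A further 6 were present in replicates 1 and 2 at 24 h and replicate 3 at 72 h, with 776, 347 and 390 counts. At the steady end, 14 members had more than 3 counts in all 9 libraries, and 14 in all but replicate 3 at 24 h.

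Correlation of log2(CPM + 0.5) between Iceland libraries, over the 271 members, described the same structure. Replicates 1 and 2 correlated at 0.744 without treatment, 0.508 at 24 h and 0.679 at 72 h. Pairs with replicate 3 of the same group lay between 0.0563 and 0.289. Between libraries of different treatments the 27 values ran from -0.326 to 0.384. Over the 25610 other unigenes, pairs of the same group ran from 0.898 to 0.977, and there too replicates 1 and 2 were the closest pair in each group. The points of each value share their libraries and depth, so the values are descriptions. In untreated leaves 56 members had more than 3 counts in replicate 3 alone and 24 in both others but not in it. At 24 h, 13 members were in replicate 3 alone and 63 in both others but not in it, and at 72 h the numbers were 40 and 37.

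Neighbouring identifiers were sometimes both members. Of the 271, 16 (5.90%) had a member under the next or the previous identifier, against 0.815% of all 25881 unigenes with an Iceland mean of at least 10 counts. The files do not say what the order of identifiers means. Of the 8 pairs, 3 shared a profile, and their levels over the 9 libraries correlated at 0.993 to 0.996: Unigene0007236 with Unigene0007237, Unigene0011285 with Unigene0011286, and Unigene0076211 with Unigene0076212. The last 2 pairs belong to the group of 18. The other 5 pairs had correlations from -0.421 to 0.221. No member stood next to an America-only unigene, and 0.143% of the 25881 unigenes did.

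The rule bears on how members spread over treatments. Its mean runs over 9 Iceland libraries, 6 of them under PEG, so a unigene found under PEG alone reached the limit with fewer counts per library than one found in untreated leaves alone. A larger share or more members under PEG is thus fixed in part by the choice of members, and the values that follow are descriptions. Iceland-only unigenes held 0.0507%, 0.0399% and 0.0482% of the counts in untreated replicates 1 to 3, 0.0710%, 0.115% and 0.0671% after 24 h, and 0.105%, 0.166% and 0.0678% after 72 h. Every PEG library was above every untreated library, and the 2 PEG times overlapped. The means were 0.0463% ± 0.00567, 0.0844% ± 0.0266 and 0.113% ± 0.0495 (SD, n = 3 each). A sum over chosen members gets no test here. The shares are of raw library totals and leave out the TMM factors. Those were 0.830, 0.821 and 0.978 in untreated replicates 1 to 3 and 1.01 to 1.09 under PEG. On TMM-scaled totals the untreated and PEG libraries lay closer together. In these libraries fewer cells with a transcript and less of it in each cell cannot be told apart.

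**Figure D3:**
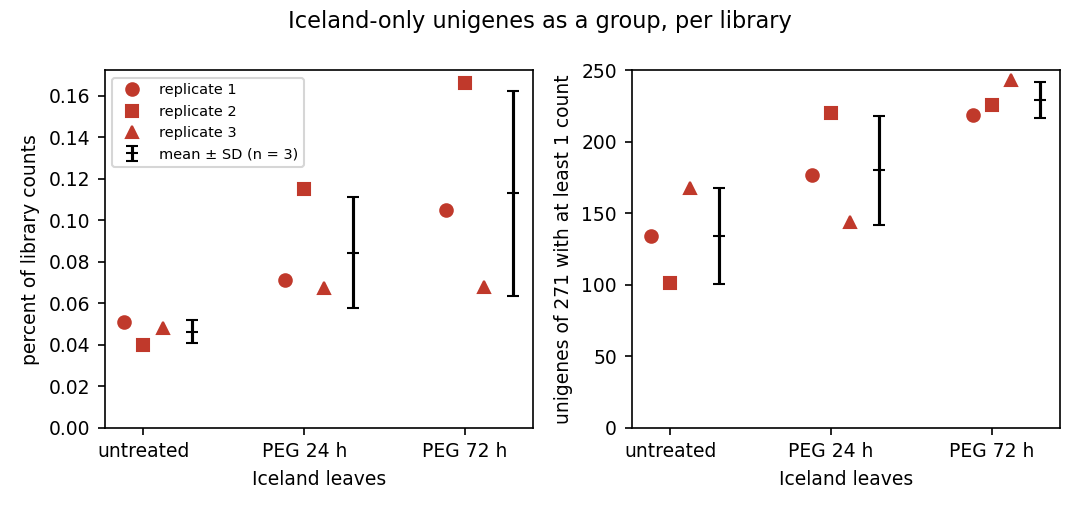
Left, percent of each Iceland library's counts (vertical axis) held by the 271 Iceland-only unigenes; right, how many of the 271 had at least 1 count; points are replicates, and bars give mean ± SD (n = 3) per treatment. Untreated libraries lie lowest in share (0.0399% to 0.0507%), and at 72 h each library held 219 to 243 of the unigenes.

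The untreated libraries had counts for 134, 101 and 168 members, the 24 h libraries for 177, 220 and 144, and the 72 h libraries for 219, 226 and 243. Untreated and 24 h libraries overlapped, and the 72 h libraries lay above both except for replicate 2 at 24 h. Over all unigenes the numbers with at least 1 count ran in a like order, from 42302 to 44704 in untreated libraries, 45826 to 49274 at 24 h and 48654 to 49439 at 72 h. Summed over a group, 179 members had more than 3 counts in untreated leaves, 219 at 24 h and 262 at 72 h. In 141 members (52.0%) this held under all 3 treatments, in 75 (27.7%) at both PEG times but not without treatment, and in 30 (11.1%) in untreated leaves and at 72 h but not at 24 h. A further 16 passed at 72 h alone, 6 in untreated leaves alone, 2 in untreated leaves and at 24 h, and 1 at 24 h alone. The highest mean CPM was at 72 h in 117 members, at 24 h in 78 and in untreated leaves in 76. Without untreated replicate 3, 126 members had more than 3 counts in untreated leaves, 98 under all 3 treatments and 118 at both PEG times but not without treatment. The highest mean was then at 72 h in 126 members, at 24 h in 82 and in untreated leaves in 63.

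Treatment within Iceland leaves was tested by edgeR across all unigenes, a contrast between treatments and not between origins. It is not independent of the rule, whose mean over the Iceland libraries leans towards members high under PEG. The filter on low counts kept 218 of the 271 members, and 53 were not tested. A member found in 1 group alone could pass the filter only through that group and then had to differ, so the counts that follow describe the set and are no support for a response of the set as a whole. After 24 h of PEG, 36 members rose and 24 fell relative to untreated leaves (16.5% and 11% of those tested). Over all 30895 unigenes tested 19.7% rose and 20.6% fell, or 40.3% in either direction. The median log2 fold change was 1.15 over the 218 members and 0.02 over all unigenes. Of the 218 tested, 44 (20.2%) were called without overlap between the groups, below the 36.7% of all unigenes tested. The median standard error (SE) of the log2 fold change was 1.36 over members and 0.396 over all unigenes. The 2 shares are thus not like for like and are not read as a difference in response. Without untreated replicate 3, 55 of the same 218 members were higher and 27 lower, and 56 and 39 of 259 with the filter run anew on the remaining libraries. The shares over all unigenes were not worked out for these refits.

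Among members past the threshold, without overlap and of at least 5 CPM, Unigene0066214 rose most at 24 h. It had no count in untreated leaves, stood at 16.7, 33.0 and 45.4 CPM at 24 h, and was thus at least 297-fold above the untreated group, whose limit is 3 counts in all (adjusted p = 0.000486 by edgeR). Such bounds, here and below, compare summed counts and leave out the scatter between libraries. All 3 libraries at 24 h were high, and the 72 h libraries, at 1.01, 7.03 and 2.47 CPM, lay below them. Unigene0004972 rose from no count to 26.2, 19.6 and 0.102 CPM, at least 151-fold (edgeR adjusted p = 0.00531, but 0.198 with limma-voom), with 1 library at 24 h close to 0. At 72 h it stood at 29.3, 8.20 and 30.5 CPM.

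In the other direction, Unigene0063606 stood at 28.5, 34.9 and 3.09 CPM in untreated leaves and kept 2 counts in all at 24 h, lower by a ratio of 350 (95% counting interval 96.5 to 2898, edgeR adjusted p = 0.00103). The interval covers counting error only and leaves out the scatter between the untreated libraries (mean 22.1 CPM, SD 16.8). At 72 h Unigene0063606 stood at 0.673, 0.390 and 6.18 CPM. Unigene0072091 fell from 15.0, 17.5 and 1.80 CPM to no count, at least 121-fold (edgeR adjusted p = 0.00935), and stood at 0.168, 0.488 and 4.95 CPM at 72 h. In both, untreated replicate 3 was the lowest of its group and replicate 3 at 72 h the highest of its own.

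After 72 h, 54 members rose and 19 fell relative to untreated leaves (24.8% and 8.72% of the 218). Over all unigenes tested 23.4% rose and 23% fell, or 46.4% in either direction. The median log2 fold change was 1.18 for members and 0.02 for all. Of the 218 tested, 58 (26.6%) were called without overlap, below the 43.1% of all unigenes tested. The median SE was 1.31 over members and 0.397 over all unigenes, so here too the 2 shares are not like for like. Over the same 218 members, the number higher was 34 without replicate 2 at 72 h, and 35 and 32 without untreated replicate 1 or 2. The number lower was 9 without replicate 1 or 2 at 72 h, and 11 and 8 without untreated replicate 1 or 2. Without untreated replicate 3 the same 218 members gave 72 higher and 25 lower, and 259 members gave 81 and 36 with the filter run anew. Shares over all unigenes were not worked out for fits without single libraries. Both times share their untreated libraries: 29 members were higher at both, 12 lower at both, and none was called in opposite directions. The same counts over all unigenes were not worked out, so this agreement is not read as a trait of the set.

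Within the same limits (called, without overlap, at least 5 CPM), Unigene0076212, of the group of 18, and Unigene0004098 rose most at 72 h, with nearly equal bounds. On summed counts Unigene0076212 rose at least 308-fold (edgeR adjusted p = 0.0315). For Unigene0076212 this bound leaves out the scatter between the 72 h libraries (mean 35.7 CPM, SD 52.8). Its call was lost without replicate 2 at 72 h (edgeR adjusted p = 0.0941), without untreated replicate 1, 2 or 3 (0.0749, 0.0727 and 0.0615), with limma-voom (0.146) and with the 9 Iceland libraries alone (0.0668). Unigene0004098 rose from no count to 44.6, 51.2 and 4.78 CPM, at least 308-fold (edgeR adjusted p = 0.000236), and stood at 0.0916, 2.44 and 2.44 CPM at 24 h. Every 72 h library of it was above every other library.

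Within these limits the falls at 72 h were smaller, while some called members outside them had larger fitted falls. Unigene0080817 went from 9.22, 10.1 and 1.10 CPM to 0, 0 and 1.07 CPM, with a log2 fold change of -4.16 ± 1.33 SE (edgeR adjusted p = 0.0237). That call was lost without replicate 1 or 2 at 72 h (edgeR adjusted p = 0.0709 and 0.0706), without untreated replicate 1 or 2 (0.0595 and 0.0633) and with a replicate block (0.104). The lack of overlap of Unigene0080817 rested on 1.10 against 1.07 CPM in untreated replicate 3 and replicate 3 at 72 h. It depended on their TMM factors of 0.978 and 1.09, and on library totals alone the order was reversed. Unigene0001582 went from 5.67, 8.89 and 2.29 CPM to 0.252, 0.0976 and 0.577 CPM (adjusted p = 0.00278 by edgeR, log2 fold change -4.11 ± 0.88 SE), and it was found in every Iceland library.

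**Figure D4:**
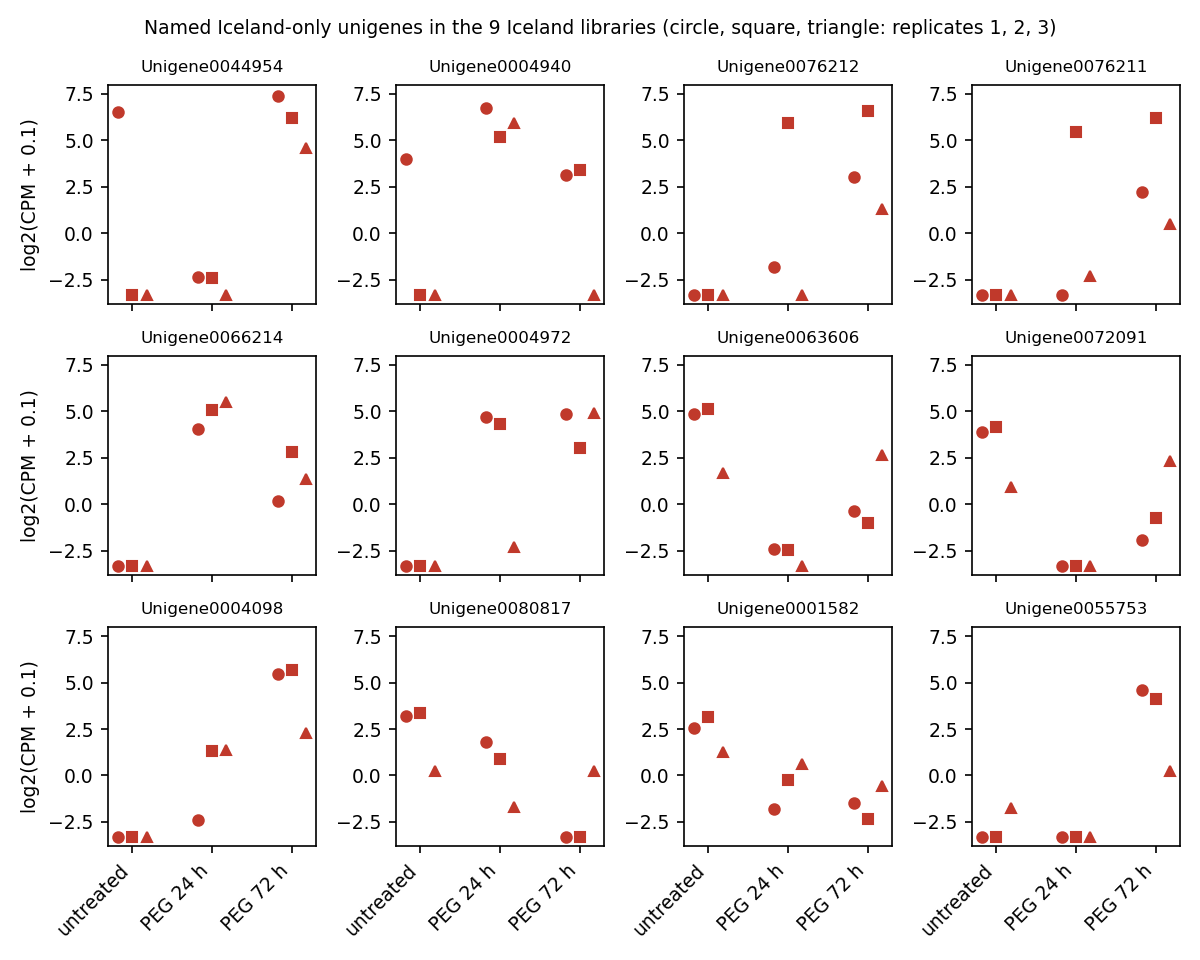
Level of the 12 Iceland-only unigenes named for abundance or for a difference between treatments, as log2(CPM + 0.1) on the vertical axis, in the 9 Iceland libraries by treatment; each point is 1 library, and the lowest level shown is 0 counts. Unigene0066214 is high in all 24 h libraries, while Unigene0076212 and Unigene0076211 are high mainly in replicate 2 of each PEG time.

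Between 24 h and 72 h few members differed. At 72 h 9 were higher and 0 lower by edgeR, against 2% higher and 1.72% lower over all unigenes tested, or 3.72% in either direction. By edgeR, 52 of the 218 had an unadjusted p under 0.05 in either direction. This limit was not counted over all unigenes, so the number is not read as a trait of the set. All 9 were called without overlap, which is 4.13% of the 218 tested and near the 3.64% of all unigenes tested. DESeq2, which adjusted p for 212 of the 218, also called 9 and 0, and limma-voom called 14 and 11. Over the same 218 members, the number higher was 2, 2 and 5 without replicate 1, 2 or 3 at 24 h, 1 without replicate 1 or 2 at 72 h, and 16 without untreated replicate 3. It was 9 without replicate 3 at 72 h, but 20 of 258 members with the filter run anew. Without replicate 2 or 3 at 72 h 3 members were lower, and 2 without untreated replicate 3. For DESeq2, limma-voom and these refits the shares over all unigenes were not worked out. Unigene0044954, described above, had 2 counts in all at 24 h and 3017 at 72 h, higher by a ratio of 1438 (95% counting interval 398 to 11879, edgeR adjusted p = 0.0224). The interval covers counting error only and leaves out the scatter between the 72 h libraries (mean 87.8 CPM, SD 72.7). The 1 high untreated library of Unigene0044954, at 92.2 CPM, lay within the range of its 72 h libraries. The call was lost without replicate 1, 2 or 3 at 24 h (edgeR adjusted p = 0.0792, 0.0879 and 0.0752), without replicate 1 or 2 at 72 h (0.0718 and 0.0549), with the 9 Iceland libraries alone (0.103) and with limma-voom (0.125). Unigene0055753 went from no count at 24 h to 23.8, 17.4 and 1.07 CPM, at least 151-fold (adjusted p = 0.0167 by edgeR), with 0, 0 and 0.200 CPM in untreated leaves. It lost its call without replicate 2 at 24 h (edgeR adjusted p = 0.0538), without replicate 1 or 2 at 72 h (0.0591 and 0.0548), with the 9 Iceland libraries alone (0.0516), with limma-voom (0.146) and with DESeq2 (0.146). No fall met the rule for this comparison.

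Members found in more libraries were called in both directions. Of the 37 members with counts in all 9 libraries, all of which were tested, 2 were higher and 6 lower at 24 h, and 4 were higher and 6 lower at 72 h. Of the 149 tested members found in 5 to 8 libraries, 31 were higher and 16 lower at 24 h, and 44 and 12 at 72 h. Of the 75 found in 4 or fewer, 32 were tested, with 3 higher and 2 lower at 24 h, and 6 and 1 at 72 h. Over all unigenes tested 19.7% were higher and 20.6% lower at 24 h, and 23.4% and 23% at 72 h. The numbers of members were not compared by a test, since the number of libraries is set in part by the treatment levels themselves. They are not read as a response of any of these subsets.

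Each unigene's length was worked out from its count, its FPKM and the library total. In 295 unigenes with at least 100 counts and 100 FPKM in every library the length differed by at most 0.00819% between libraries, and 99.3% were within 0.1 of a whole number of bases. Iceland-only unigenes were shorter at the median. Their median length was 864 bases, with quartiles of 560 and 1334, against a median of 1362 and quartiles of 821 and 2128 over all 30895 unigenes tested. Lengths under 500 bases were found in 19.6% of members and 8.67% of all, and lengths of 2000 bases or more in 9.96% and 28.3%. Short length was not particular to this set. The 56 America-only unigenes had a median of 994 bases, with 17.9% under 500 bases and 12.5% at 2000 or more. Because a longer unigene collects more counts at the same level, lengths were also set side by side at like counts. Medians were 783 bases for members and 1031 for other unigenes at Iceland means from 10 to under 20 counts, 894 and 1206 from 20 to under 50, and 1101 and 1839 from 50 up.

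The shortest member, Unigene0078685, was 209 bases and stood at 3.12, 0.924 and 0 CPM at 24 h and at 3.20, 4.20 and 0.247 CPM at 72 h, with 1 count over the untreated libraries. The longest, Unigene0068279, was 5262 bases and stood at 0, 0 and 1.20 CPM untreated, at 8.80, 21.3 and 19.4 CPM at 24 h, and at 4.04, 8.49 and 3.38 CPM at 72 h. Per length the shortest stood at 6.48 FPKM on average over the Iceland libraries, above the upper quartile of members of 3.93 FPKM, and the longest at 1.45 FPKM, below the median of members. The 37 members found in all 9 libraries had a median length of 836 bases, and the 75 found in 4 or fewer had 997 bases.

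**Figure D5:**
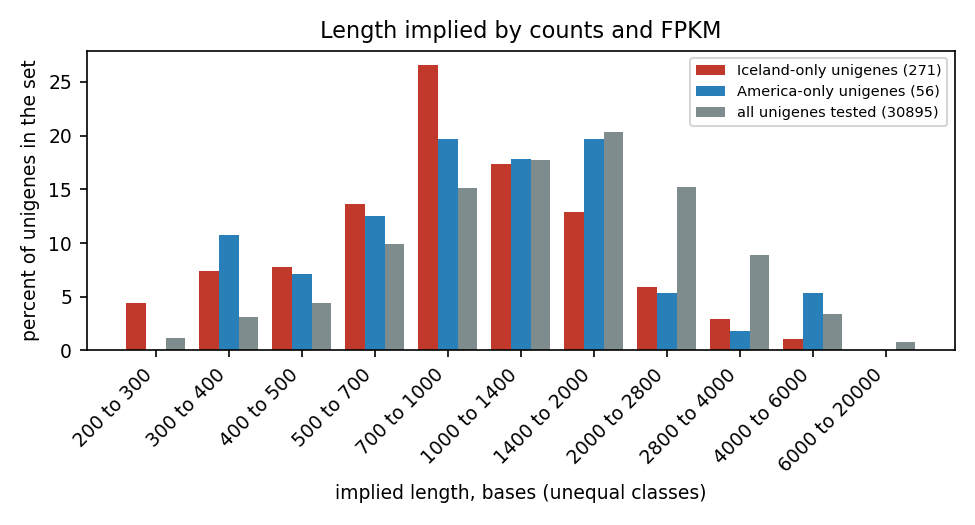
Percent of unigenes in each class of implied length in bases (classes of unequal width) for the 271 Iceland-only unigenes, the 56 America-only unigenes and all 30895 tested. The Iceland-only set peaks between 700 and 1000 bases and holds fewer unigenes of 2000 bases or more (9.96%) than all tested (28.3%). In the America-only set 12.5% are that long.

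The same rule turned round, at most 3 counts over the Iceland libraries and a mean of at least 10 over the America libraries, gave 56 America-only unigenes against the 271. The origins were closer in the number of unigenes at that level: 25881 had a mean of at least 10 counts in Iceland and 25260 in America. Unigenes with counts in Iceland and none in America numbered 8526, and 5342 had the opposite. America-only unigenes were uneven over their own libraries too, with 17 of 56 (30.4%) in all 9. They held 0.0100% ± 0.00311 of the counts in untreated America leaves, 0.0106% ± 0.00185 at 24 h and 0.0128% ± 0.00326 at 72 h (SD, n = 3 each), ranges that overlap. Their median length was 994 bases. Of the 43 tested, 6 were higher and 1 lower at 24 h in America leaves, where 16% and 15.1% of all unigenes were, and 11 were higher and 5 lower at 72 h, where 18.4% and 18% were.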

How the data were processed

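Leaf RNA of 18 libraries was sequenced. Per the submitters' processing notes, bcl2fastq 2.0.1, cutadapt 1.18 and RSEM 1.3.1 were used, with no role given. Strand setting, assembly and annotation were not given in the sources used here. The authors deposited whole-number counts per unigene for each library, per the file headers, and how RSEM estimates became whole is not stated. How reads common to near-identical unigenes were assigned is not stated either, so levels of such unigenes are uncertain. The deposited FPKM values, per the file headers, have at most 2 decimals and served only for length and level per length.

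Members were found on the deposited counts. The members, lists and tests were chosen with earlier results of these data known. edgeR 4.0.16 in R 4.3.3 fitted all 18 libraries as 6 groups after filterByExpr (30895 unigenes kept) and TMM scaling, with a quasi-likelihood test and Benjamini-Hochberg adjustment over all unigenes tested, threshold 0.05. CPM uses the total of all unigenes times the TMM factor. Folds against 0 counts are bounds computed against 3 counts over the group, and they leave out the scatter between libraries. Ratios against 1 to 3 counts carry exact 95% intervals on summed counts, which also leave out that scatter. Fitted log2 fold changes carry their SE. Profiles, neighbours and correlations are descriptions.

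Unigenes were named by a rule: the 4 most abundant members, for each treatment comparison at most 2 rises and 2 falls without overlap and of at least 5 CPM, the 2 least and 2 most variable, the shortest and longest, and those at the limits. Profile groups and identifier pairs were named after their values were seen. No pair of replicates was close enough to be 1 library deposited again (18 pairs, chi-square of 5.83 to 63.9 per unigene). The fit was tested on counts simulated with the same spread for every unigene. That does not cover unigenes as uneven between replicates as many members were. Alternatives were DESeq2 size factors, the DESeq2 1.42.0 Wald test, voom in limma 3.58.1, no low-count filter, the 9 Iceland libraries alone, a further 2-fold minimum, a replicate block, each Iceland library left out in turn (with the filter run anew, and over the same unigenes), and other limits for members.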

Additional observations from a re-analysis of the deposited data

Results flagged for a closer look

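The responses at 24 h and 72 h of PEG share their untreated libraries, and the comparison of 72 h with 24 h tests their difference directly. By that test Unigene0044954 and Unigene0055753 differed between the times, with fitted log2 differences of 10.25 and 10.29. Unigene0055753 had 0 counts at 24 h, so the size of its fitted value is set by the prior count. Unigene0044954 had 2 counts in all at 24 h, and the size of its fitted value rests on those few counts. Neither value is a bound.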

How the results depend on the processing

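Under the other limits tried, the number of members was 153 with 0 counts over the America libraries, 124 with an Iceland mean of at least 20 counts, 37 with at least 1 count in each Iceland library and 272 with counts scaled to a common total, and it ran from 261 to 324 without single libraries. Shares over all unigenes were worked out for the main fit alone. The counts of the other fits in this section are thus not to be set against those shares. Without the filter on low counts all 271 members were tested, and 85 were higher and 51 lower at 24 h, 99 and 37 at 72 h, and 36 and 7 at 72 h against 24 h. At 72 h against 24 h, limma-voom gave 14 higher and 11 lower, and the Iceland libraries alone 3 higher. Leaving out single libraries, with the filter run anew (243 to 265 members tested), gave 26 to 56 higher and 19 to 39 lower at 24 h, 34 to 81 and 8 to 36 at 72 h, and 1 to 20 and 0 to 3 at 72 h against 24 h. Over the same 218 members, a choice made after seeing the data, the ranges were 25 to 55 and 16 to 27, 32 to 72 and 8 to 25, and 1 to 16 and 0 to 3. These fits gave 55 higher at 24 h without untreated replicate 3, 34 higher at 72 h without replicate 2 at 72 h, 35 and 32 without untreated replicate 1 or 2, and at 72 h against 24 h 2, 2 and 5 higher without replicate 1, 2 or 3 at 24 h and 16 higher and 2 lower without untreated replicate 3. Without untreated replicate 3, 126 members had more than 3 counts in untreated leaves, and 118 at both PEG times but not in untreated leaves.

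The replicate number as a block changed 1 count by more than 1.5 times, from 0 to 1 member lower at 72 h against 24 h. Over all unigenes tested, same-numbered libraries of the Iceland groups did not deviate together (9 correlations from -0.0735 to 0.0917), so the numbers were not treated as pairs. Over the 271 members, both ends of the correlations between treatments were pairs of replicate 2. These were 0.384 for 24 h with 72 h and -0.326 for untreated with 72 h. With the stricter detection limits added after seeing the data, members in every Iceland library numbered 14 (at least 4 counts) and 4 (at least 10 counts), and without untreated replicate 3 they numbered 38. The share of counts in members ran from 0.0441% to 0.0495% untreated, 0.0691% to 0.0931% at 24 h and 0.0864% to 0.135% at 72 h without single libraries. At this depth a member can be missed in a library where it stands under 0.351 CPM. DESeq2 size factors moved the median log2 fold change of all unigenes by at most 0.0455.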
